A study of Drosophila melanogaster with 2 samples.

Results

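Tagged org-1 protein was mapped by chromatin immunoprecipitation and sequencing (ChIP-seq) in Drosophila melanogaster, and the regions described here are the weaker candidate regions that both replicate libraries had among their strongest. A candidate region is a stretch that the authors' peak calling listed together with much background, before any test of replicate agreement. A region was a member if it was a pooled candidate in the dm6 build, overlapped no peak of the authors' optimal list, and overlapped by 1 bp or more a region among the 10000 with the highest signal in replicate 1 and one among the 10000 highest in replicate 2. The rule gave 2143 of the 30000 pooled candidates. The optimal list, which the authors had cut by irreproducible discovery rate (how far the ranks of a region in both replicates disagree), held 4434 peaks, and 5641 pooled candidates overlapped it. The other 22216 candidates overlapped neither that list nor a strong region of both replicates. The members were thus chosen by the signal values, which are described below without a test.

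Both libraries came from whole embryos of mixed sex, aged 2 to 24 h, of a stable transgenic strain, org-1-GFP, which makes org-1-eGFP fusion proteins with the tag at the C-terminal end. The age is that of the source label; the age field itself holds a number that is no age of an embryo in hours. The labels make them biological replicates of a single group, and no condition or genotype without the tag was analysed here. The description names an antibody to GFP and the antibody field names org-1; the first was taken. Chromatin was sonicated to 200 to 800 bp, and whole embryos mix all tissues, so that no region can be given to a cell type. Sequencing depth is unknown, since the lists give no counts of reads. The intervals and tests below treat regions of 1 experiment as units and cover the counting of regions, not the spread between embryos.

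In flies org-1 encodes a member of the T-box family, the counterpart of Tbx1 in vertebrates, and acts in the founder cells that give body wall and gut muscles their identity. T-box factors bind DNA through a domain that contacts short sites built on the core AGGTGTG. In a ChIP-seq experiment, regions bound in few cells of a whole embryo, regions of open chromatin and background can all give modest signal, and lists of candidates are kept long so that rank agreement between replicates can be measured.

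Sequences of 101 bp around the summit (the base with the highest signal of a region) are shown for the members on which the sequence results turn, read from release 6 of the genome (the dm6 build, RefSeq) in 5′ to 3′ direction. The first set holds 3 of the 4 members with the longer T-box word AGGTGTGA within 50 bp of the summit, in capitals on either strand. They lie in an intron of Mob2, which encodes a cofactor of NDR kinases, 446 bp inside cu, which encodes a Nocturnin-type protein, and 6833 bp upstream of CG42852. The windows are centred on the pooled summit. At cu and CG42852 the summits of both replicates lay outside the window shown, and at Mob2 that of replicate 1 did.
Mob2 intron (chr3L:11550523-11550623, plus strand): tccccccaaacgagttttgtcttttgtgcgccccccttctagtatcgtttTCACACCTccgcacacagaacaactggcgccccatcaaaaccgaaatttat
cu promoter (chr3R:11200805-11200905, plus strand): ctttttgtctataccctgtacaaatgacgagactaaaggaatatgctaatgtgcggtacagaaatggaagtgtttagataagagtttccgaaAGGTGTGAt
CG42852 upstream (chr3L:16748606-16748706, plus strand): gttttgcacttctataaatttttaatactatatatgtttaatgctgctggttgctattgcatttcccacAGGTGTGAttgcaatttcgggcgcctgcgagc

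The second set shows a forkhead word and the word GCACTGA, both in capitals, in the strongest members that hold them. The forkhead word TGTTTAC lies in introns of Bicra, which encodes a chromatin remodelling subunit, and sba. The word GCACTGA, which joins words of 6 bases found more often at member summits than beside them, lies in an intergenic region whose nearest start is that of Cyp12e1 and 447 bp upstream of dysf, which encodes a bHLH-PAS factor.
Bicra intron (chr3R:29066470-29066570, plus strand): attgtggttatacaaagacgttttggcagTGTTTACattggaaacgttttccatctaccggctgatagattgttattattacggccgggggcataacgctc
sba intron (chr3R:23909579-23909679, plus strand): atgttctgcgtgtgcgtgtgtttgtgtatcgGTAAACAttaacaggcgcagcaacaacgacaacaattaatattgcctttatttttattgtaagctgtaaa
Cyp12e1 intergenic (chr3R:10498679-10498779, plus strand): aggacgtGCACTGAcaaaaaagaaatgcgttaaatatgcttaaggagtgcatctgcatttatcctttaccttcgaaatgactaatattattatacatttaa
dysf promoter (chr3R:26099108-26099208, plus strand): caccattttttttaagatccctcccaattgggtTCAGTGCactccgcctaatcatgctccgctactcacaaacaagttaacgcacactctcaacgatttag

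The third set shows members at muscle genes that had no optimal peak, eya and lmd, neither of which holds the T-box core AGGTGTG in this window, so nothing is in capitals.
eya intron (chr2L:6540169-6540269, plus strand): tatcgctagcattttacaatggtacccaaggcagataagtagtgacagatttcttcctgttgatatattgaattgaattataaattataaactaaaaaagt
lmd upstream (chr3R:23028658-23028758, plus strand): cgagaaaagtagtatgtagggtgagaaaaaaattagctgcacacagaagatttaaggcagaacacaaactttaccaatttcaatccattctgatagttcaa

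The last set shows the sequence at the replicate 1 summit and at the replicate 2 summit for 3 loci, out of the 8 of highest pooled signal with summits 200 bp or more apart and a sequence that could be shown. Reg-2 and Kap3 were taken as those with the largest difference in GC content and Pif1B as the only one of the 8 with more GC at the replicate 1 summit. The GC content was 26.7% at the replicate 1 summit and 51.5% at the replicate 2 summit near Reg-2, 29.7% and 56.4% near Kap3, and 47.5% and 46.5% near Pif1B. Nothing is in capitals.
Reg-2 locus, replicate 1 summit (chr3L:613684-613784, plus strand): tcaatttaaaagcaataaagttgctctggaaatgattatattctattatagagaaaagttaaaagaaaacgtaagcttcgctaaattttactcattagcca
Reg-2 locus, replicate 2 summit (chr3L:613365-613465, plus strand): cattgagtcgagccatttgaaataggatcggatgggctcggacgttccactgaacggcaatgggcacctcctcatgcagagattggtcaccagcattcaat
Kap3 locus, replicate 1 summit (chrX:11341223-11341323, plus strand): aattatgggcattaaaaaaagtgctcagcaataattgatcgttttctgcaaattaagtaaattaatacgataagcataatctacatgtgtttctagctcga
Kap3 locus, replicate 2 summit (chrX:11340888-11340988, plus strand): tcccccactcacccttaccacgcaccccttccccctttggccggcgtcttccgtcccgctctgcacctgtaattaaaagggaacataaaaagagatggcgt
Pif1B locus, replicate 1 summit (chr3R:8789112-8789212, plus strand): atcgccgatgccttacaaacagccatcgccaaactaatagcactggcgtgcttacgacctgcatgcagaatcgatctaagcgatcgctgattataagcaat
Pif1B locus, replicate 2 summit (chr3R:8788898-8788998, plus strand): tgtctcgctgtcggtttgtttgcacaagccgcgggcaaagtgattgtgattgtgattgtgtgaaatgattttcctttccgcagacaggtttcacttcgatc

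The members stood just under the optimal list in the pooled data. Their pooled signal, the authors' own value, ran from 24.0 to 100.7 with a median of 73.4. The optimal peaks ran from 100.7 to 2560 with a median of 164, and the other candidates had a median of 34.4. In the pooled list the members ranked between 4437 and 29983, with a median rank of 6763. Their −log10 q values ran from 0.150 to 2.72, and 35 members lay above the lowest value of the optimal list, 2.71. All members still had a lower pooled signal than any optimal peak, and near the cut −log10 q and signal did not order the regions alike. Of the candidates outside the optimal list with a pooled signal of 80 up to 101, 820 of 1436 (57.1%) were members, beside 632 of 2445 (25.8%) at 60 to 80, 345 of 5733 (6.02%) at 40 to 60 and 346 of 14745 (2.35%) at 20 to 40.

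In replicate 1 the members ranged from 31.9 to 174 in signal (median 44.1), and in replicate 2 from 29.3 to 117 (median 39.1). The lower bounds are those of the rule: the region at rank 10000 was at 31.9 in replicate 1 and at 29.3 in replicate 2. Replicate 1 had the higher value in 1398 of 2143 members. Within this group the signals of both replicates had a Spearman rho of -0.0534 (n = 2143), a description of a group that was bounded from below by each replicate's signal and from above by the optimal list. Overlapping members can take the same replicate regions, so this count and rho repeat some pairs of values. Just inside the rule, the member nearest to Lmpt had 31.87 in replicate 1 and 38.9 in replicate 2, and just outside it the candidate nearest to CG12493 had 31.84 and 29.4. At the upper end, the member at Synd had a pooled signal of 100.66 and the weakest optimal peak, nearest to Ttd14, had 100.71.

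**Figure D1:**
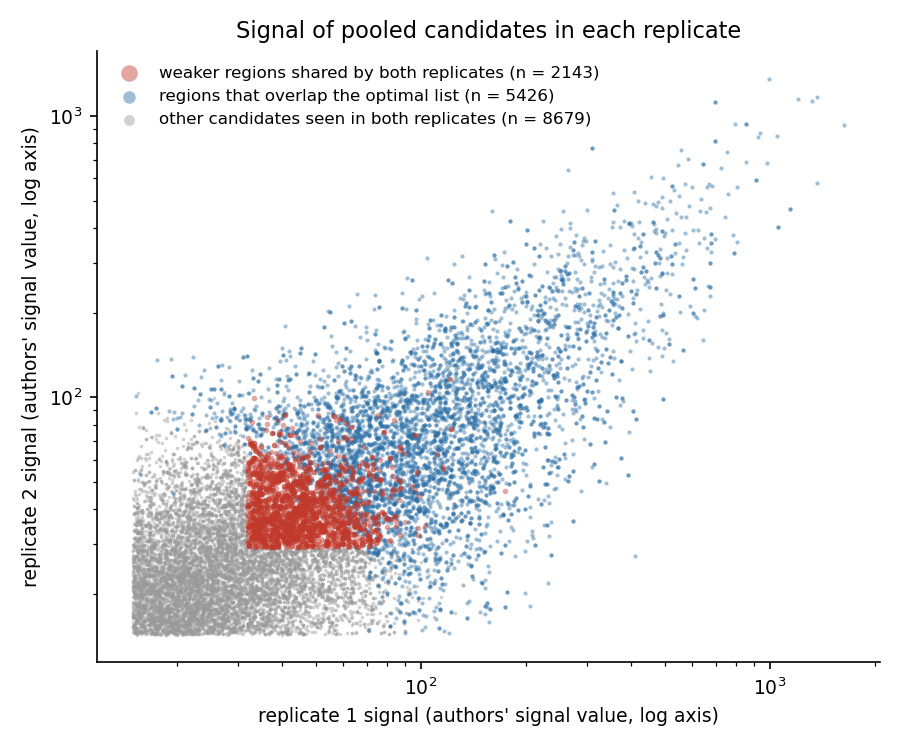
Signal in replicate 1 (x, log axis) and replicate 2 (y, log axis) of each pooled candidate with a candidate region in both replicates, as the authors' signal values. The 2143 members (red) fill the corner above 31.9 and 29.3 that the rule sets, below most regions that overlap the optimal list (blue), with 8679 other candidates in grey.

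The genes with the nearest start to the strongest members were of varied function. The member with the highest pooled signal was 215 bp inside Synd, which encodes the membrane-curving protein Syndapin, with 100.7 in the pooled list, 33.4 in replicate 1 and 68.7 in replicate 2. Next came an intergenic member 6977 bp from the start of QIL1, which encodes a subunit of the mitochondrial MICOS complex (100.6, with 61.8 in replicate 1 and 31.8 in replicate 2). The member in an intron of CG9328 had nearly equal values in both libraries (52.9 in replicate 1 and 51.5 in replicate 2), and its replicate summits lay 9 bp apart. The rest of the 20 strongest, with 99.997 to 100.5, were nearest to drn, Ifrd1, Cad89D, CG16762, fz2, CG43402, CG32264, CG4161, CDase, Sr-CI, CG12362, CG2017, CG6040, Ote, qsm, wdp and Bicra. Among them are genes for a Wnt receptor (fz2), a cadherin (Cad89D), a ceramidase (CDase), a scavenger receptor of blood cells (Sr-CI) and an inner nuclear membrane protein (Ote). Nearest does not mean close. Intergenic members lay 3682 bp from the start of Ote, 11563 bp from Sr-CI, 13628 bp from CG43402 and 21685 bp from CG12362. The member nearest to CG16762 lay in an intron of Svil.

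The replicates differed most at a few members. The highest ratio of replicate 1 to replicate 2 was at a member in an intron of Adf1, a gene of a Myb-related transcription factor (174 in replicate 1 and 46.4 in replicate 2), whose summit lay 258 bp from an optimal summit. It was followed by members 560 bp upstream of CG12768 (98.1 and 32.3) and in an intron of bol, a gene of an RNA-binding protein of spermatogenesis (102.7 and 35.0). The lowest ratios were at members upstream of the cuticle protein gene Cpr35B (33.3 in replicate 1 and 99.7 in replicate 2), at the promoter of sug, which encodes a zinc finger factor of the sugar response (32.8 and 82.0), and 79 bp inside CG2017 (36.3 and 84.8). In these 6 members the replicate summits lay 107 to 496 bp apart, so that both signals need not describe the same base.

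Members came in runs. Of the 2143 regions, 2139 were 456 bp wide, and overlapping ones merged into 1552 loci: 978 of 1 member, 557 of 2 and 17 of 3. Within a locus neighbouring summits lay 199 to 407 bp apart, with a median of 209 bp (591 pairs). In the 574 loci of 2 or more, the strongest member had a median pooled signal of 82.3 and the weakest of 39.8. The weakest members of such loci had 42.6% GC around the summit on average and the strongest 39.8%. The locus at Synd shows such a pair: its second summit, 420 bp inside the gene, had a pooled signal of 25.8 beside 100.7 at the first, and both took the same replicate regions (33.4 in replicate 1 and 68.7 in replicate 2).

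Within a locus the replicate summits often lay away from the pooled summit. Of the 1552 loci, each taken by its strongest member, 831 (53.5%) had both replicate summits within 100 bp of the pooled summit and 721 did not. Only the strongest members were used, since of the 591 further members of the same loci, whose summits lie 199 bp or more from a neighbour, 2 met this limit. The 831 loci had a median pooled signal of 85.5 and the 721 one of 73.2, and the median ratio of pooled signal to the sum of both replicates was 1.00 and 0.837. GC was 37.5% in the first set and 40.2% in the second, a difference of -2.70 points (95% interval -3.62 to -1.79). Promoters held 17.4% and 34.5%, a difference of -17.1 percentage points (Newcombe 95% interval -21.4 to -12.7). Intergenic sequence held 29.4% and 18.6% (10.8 points, with an interval above 0), and introns 50.5% and 44.7% (5.88 points, 0.899 to 10.8).

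The distance from one replicate summit to the other had a median of 100 bp in member loci and 36 bp in optimal loci. The summits lay within 100 bp of each other in 781 of 1552 member loci (50.3%) and in 3025 of 3688 optimal loci that overlapped a strong region of each replicate (82.0%). The difference was -31.7 points (Newcombe 95% interval -34.5 to -28.9). The optimal list was cut by the rank agreement of the replicates. Pooled signal alone also separates it from the rest. Its peaks had 100.71 or more, members 100.66 or less and the other candidates 100.49 or less. Members and optimal peaks are thus divided by pooled signal, and not only by how well the replicates agreed at each region. What part pooled signal or replicate agreement has in the summit distances was not tested.

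The farther apart the replicate summits lay, the more the mean GC content at the replicate 1 summit fell short of that at the replicate 2 summit. Over the 1552 member loci the 101 bp around the replicate 1 summit had 36.5% GC and those around the replicate 2 summit 41.7%, a difference of -5.25 points (95% interval -5.80 to -4.70). GC was lower at the replicate 1 summit in 953 loci, higher in 489 and equal in 110. The difference was -0.144 points in the 501 loci with summits 0 to 50 bp apart (95% interval -0.522 to 0.234, which holds 0), -1.18 in 280 at 51 to 100 bp, -5.13 in 322 at 101 to 200 bp, -9.52 in 151 at 201 to 300 bp and -15.6 in 298 at 301 to 701 bp. Windows less than 101 bp apart share bases, which bounds the difference in the first bins. Promoters held 16.8% of the loci in the first bin, 18.2% in the second, 28.0% in the third, 33.1% in the fourth and 39.9% in the last. Each replicate is 1 library, and what sets the difference between them was not tested.

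**Figure D2:**
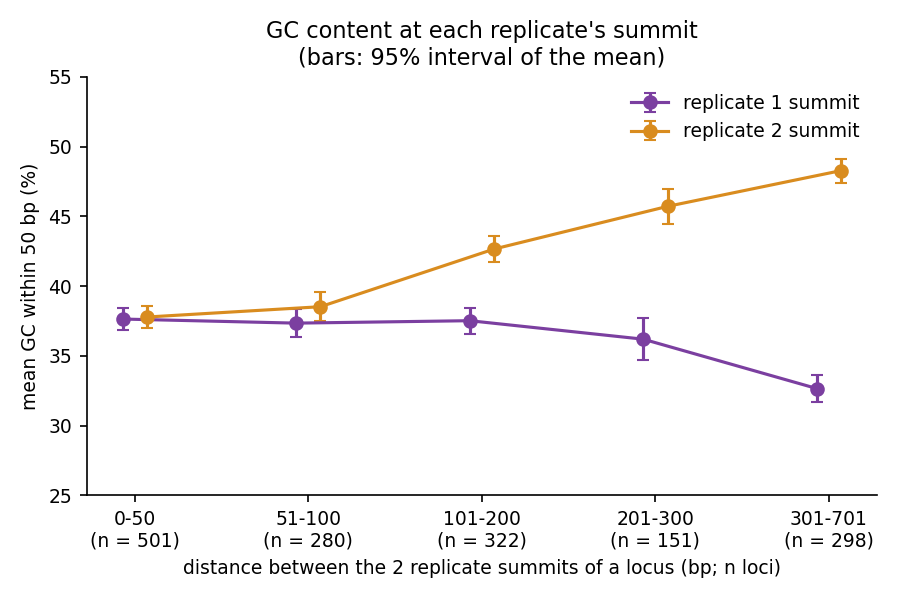
Mean GC content within 50 bp of the replicate 1 summit (purple) and of the replicate 2 summit (orange) in member loci, by the distance between both summits in bp, with the 95% interval of the mean. GC is 37.6% at replicate 1 and 37.8% at replicate 2 summits in the first bin and reaches 32.7% at replicate 1 and 48.3% at replicate 2 summits in the last.

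The optimal loci showed the same order of the replicates, and the comparison with them turned with the distance. Over all loci the mean difference between the replicate summits was -5.25 points in members and -2.85 points in optimal loci, so it was larger in size in members by 2.40 points (members minus optimal -2.40, 95% interval -3.02 to -1.79). Within bins of distance it was smaller in size in members: -5.13 against -7.77 points at 101 to 200 bp (members minus optimal 2.64, 0.991 to 4.28), and -9.52 against -14.0 at 201 to 300 bp (4.44, 1.46 to 7.42). At 301 bp or more it was -15.6 against -18.4 points and the interval of the difference held 0 (2.80, -0.0562 to 5.66). At 51 to 100 bp it was -1.18 against -3.19 (2.01, 0.727 to 3.30), and below that -0.144 against -0.563 (0.418, 0.00190 to 0.835). Distances of 301 bp or more were found in 19.2% of member loci and 2.14% of optimal loci.

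Member summits lay between the optimal peaks and the other candidates in base composition. Within 50 bp of the summit the GC content was 39.8% in members (SD 9.54, n = 2143), 34.7% in optimal peaks (SD 9.12, n = 4434) and 42.8% in other candidates (SD 10.1, n = 22216), beside 42.2% over the chromosome arms. Members exceeded optimal peaks by 5.16 points (95% interval 4.68 to 5.65); with the strong regions of replicate 2 alone the difference was 9.53 points and with those of replicate 1 alone 2.63. It was 3.34 points in the 1072 members with the highest pooled signal and 2.86 in those with both replicate summits within 100 bp of the pooled summit. Members lay below the other candidates by 2.97 points (difference -2.97, -3.40 to -2.55). Against a window 400 bp to the side, GC at the summit differed by -2.84 points in members, -8.74 in optimal peaks and 0.978 in other candidates. Candidates strong in replicate 1 alone had 35.9% and those strong in replicate 2 alone 46.7%. The members, at 39.8%, lay between these groups, and the optimal peaks, at 34.7%, below both. GC also went with the balance of the replicates among the members: in 4 equal groups, ordered from the lowest to the highest ratio of replicate 1 to replicate 2 signal, it was 42.1%, 40.6%, 39.7% and 36.9%, with a Spearman rho of -0.213 (n = 2143 regions that share the same 2 libraries). These regions lie in 1552 loci, and members of the same locus can carry the same ratio.

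**Figure D3:**
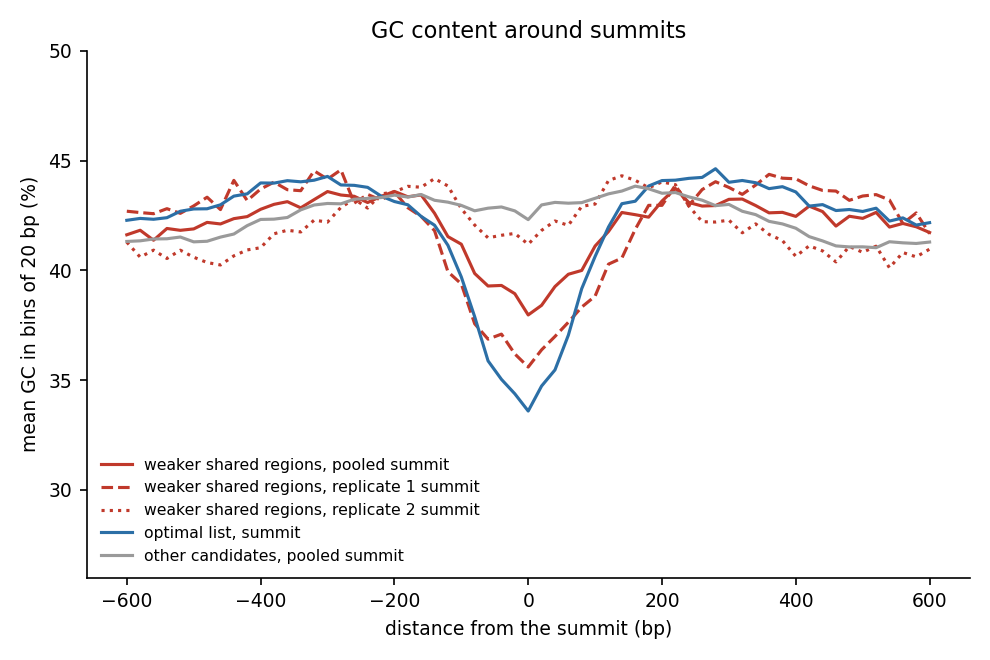
Mean GC content in bins of 20 bp against the distance from the summit in bp, for the 1552 member loci around their pooled (solid red), replicate 1 (dashed) and replicate 2 (dotted) summits, for optimal peaks (blue) and other candidates (grey). At 0 bp members have 38.0% around the pooled, 35.6% around the replicate 1 and 41.2% around the replicate 2 summit, and optimal peaks 33.6%.

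Members lay at promoters less often than optimal peaks and more often than other candidates. A summit was counted as promoter if the start of a protein-coding transcript was annotated no more than 500 bp away, then as coding exon, UTR, intron or intergenic. Promoters held 554 members (25.9%, exact binomial 95% interval 24.0 to 27.8), 37.6% of optimal peaks and 18.8% of other candidates. The difference was -11.8 points to the optimal peaks (Newcombe 95% interval -14.1 to -9.40) and 7.04 points to the other candidates (5.16 to 9.0). The other candidates were not alike. Promoters held 21.3% of those strong in replicate 1 alone, 37.2% of those strong in replicate 2 alone and 13.3% of those strong in neither. Members minus these groups gave 4.53 points (2.30 to 6.80), -11.3 points (-13.7 to -8.87) and 12.5 points (10.6 to 14.5). Introns held 1020 members (47.6%), 43.1% of optimal peaks (difference 4.54, 1.98 to 7.11) and 45.9% of other candidates (1.66, -0.547 to 3.88, which holds 0). Intergenic sequence held 513 members (23.9%), 17.9% of optimal peaks (6.03, 3.93 to 8.19) and 26.5% of other candidates (-2.54, -4.39 to -0.598). With the 5000 strongest regions of each replicate in place of 10000, only 147 members were left and the promoter, intron and coding exon differences to the optimal peaks turned in sign, with intervals that held 0. With the strong regions of replicate 2 alone the intron difference also turned (-1.58, -3.50 to 0.340) and the promoter difference was -4.56 points (-6.42 to -2.69). In the 833 members with both replicate summits within 100 bp of the pooled summit it was -20.2 points.

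Coding exons were rare among the members. They held 21 members (0.980%), 0.135% of optimal peaks and 6.21% of other candidates, a difference of 0.845 points to the optimal peaks (0.471 to 1.36) and of -5.23 points to the other candidates (-5.70 to -4.63). Among the other candidates the share was 0.554% in those strong in replicate 1 alone and 4.39% in those strong in replicate 2 alone. In those strong in neither it was 8.23%. With the strong regions of replicate 2 alone the difference to the optimal peaks was 3.02 points, and over the remaining alternatives that kept its sign it ran from 0.424 to 1.39. These 21 members had 52.8% GC around the summit, beside 41.6% in the promoter members and 39.0% in the intronic ones. UTRs held 35 members (1.63%), 1.29% of optimal peaks (0.348, -0.244 to 1.04, which holds 0) and 2.57% of other candidates (-0.937, -1.44 to -0.276). The summits of 110 members fell inside non-coding genes, 100 of them of type ncRNA.

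**Figure D4:**
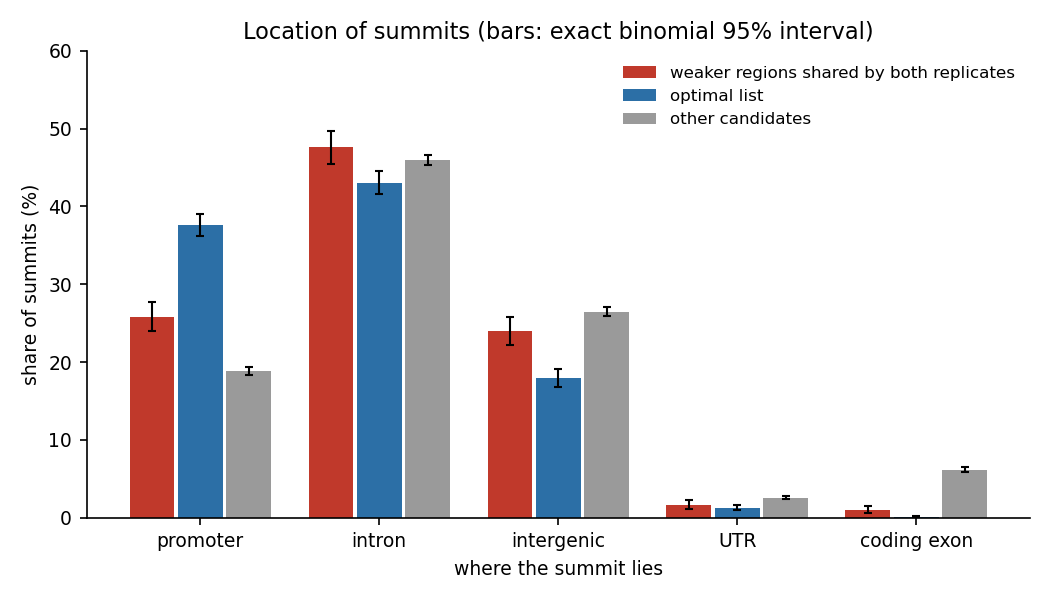
Share of summits in % at promoters, introns, intergenic sequence, UTRs and coding exons, for members (red), optimal peaks (blue) and other candidates (grey), with exact binomial 95% intervals. Members lie between the other sets at promoters (25.9%, with 37.6% of optimal peaks and 18.8% of other candidates) and in coding exons (0.980%, 0.135% and 6.21%).

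Promoter members lay upstream of the nearest start less often than optimal promoter peaks. Of the 554 promoter members, 333 (60.1%, exact interval 55.9 to 64.2) lay upstream of the nearest start, against 79.4% of 1668 optimal promoter peaks and 49.5% of 4179 other candidates. The differences were -19.3 points (Newcombe 95% interval -23.8 to -14.8) and 10.6 points (6.20 to 14.9). The 554 include further members of the same locus, since 394 loci were at promoters by their strongest member. An upstream share by locus was not computed. The median distance to the start without regard to side was 157 bp in members, 159 bp in optimal peaks and 167 bp in other candidates. Over all members the median distance to the nearest start was 2152 bp, beside 1178 bp in optimal peaks, and 31.5% of members and 22.9% of optimal peaks lay beyond 5000 bp.

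Across the chromosome arms the members were spread much like the optimal peaks. They numbered 395 on 2L, 379 on 2R, 491 on 3L, 554 on 3R, 324 on X and 0 on the small chromosome 4. Against the optimal peaks the share on X was lower by 3.89 points (difference -3.89, Newcombe 95% interval -5.77 to -1.95) and that on 3R higher (3.01 points, 0.801 to 5.26). The intervals of the other 4 differences held 0.

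The T-box core was rare at the members and no more frequent at summits than beside them. AGGTGTG, on either strand and no more than 50 bp from the summit, was present at 24 of 2143 members (1.12%, exact interval 0.719 to 1.66) and in 25 windows centred 400 bp to the higher coordinate (1.17%; exact McNemar p = 1, adjusted p = 1 over 27 motifs). Its share was 0.586% at optimal summits and 0.990% at other candidates. Members exceeded the optimal peaks by 0.534 points (Newcombe 95% interval 0.0777 to 1.11), beside a GC content 5.16 points higher, whose part in this was not tested. That interval counts overlapping members of the same locus as separate regions. With 1 summit for each of the 1552 loci the member share was 0.838%, and its difference to the optimal peaks was not computed. The share was lower still in members with both replicate summits within 100 bp of the pooled summit. Over other choices of members it ranged up to 1.36%, in the 147 members from the 5000 strongest regions of each replicate. The interval against the other candidates held 0 (0.130, -0.262 to 0.684). The longer word AGGTGTGA was at 4 members (0.187%) and in 5 flanks, at the loci shown above and at CG13506. Of the other 20 members with the core, the 3 with the highest pooled signal lay 106 bp upstream of vib (99.98), 19831 bp from the start of SmD1 (99.8), in an intron of dally near CG32026 (96.4). These 3 were chosen after their values were seen.

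Forkhead words and the TATA box were the motifs that differed. Of 27 motifs 3 passed an adjusted p of 0.05 at the members (11.1%), all more frequent at summits, against 13 (48.1%) at the optimal peaks, of which 6 were higher and 7 lower. The count at the members was 0 with the 5000 strongest regions of each replicate (147 members) and 1 in the 1072 members with the highest pooled signal, and 11 and 9 with the strong regions of replicate 1 alone and of replicate 2 alone. The forkhead word TGTTTAC was at 4.20% of member summits and in 2.29% of flanks (exact McNemar adjusted p = 0.00712), with 4.49% at optimal summits and 3.10% at other candidates. TGTTTAT was at 6.25% of member summits and in 4.01% of flanks (exact McNemar adjusted p = 0.00715), with 6.07% at optimal summits and 4.29% at other candidates. The TATA box TATAAA was at 14.8% and in 11.2% of flanks (exact McNemar adjusted p = 0.00712), with 20.1% at optimal summits and 11.3% at other candidates. All 3 are AT-rich words, and GC at member summits minus flanks was -2.84 points; its part in these counts was not tested. The Pbx/Hox word (8.17% at summits, 6.16% in flanks, exact McNemar adjusted p = 0.0923), MEF2 (0.373% and 0.327%), the Tinman-type NK word (2.29% in both) and the E-box CACATG (4.90% and 6.07%, adjusted p = 0.428), did not pass.

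The remaining motifs had an exact McNemar adjusted p of 0.428 or more at the members, which does not show that summits and flanks were alike. Among the E-boxes, the sites of bHLH factors, CAGCTG was at 5.37% of summits and in 4.57% of flanks, CATATG at 3.64% and in 3.27%, CAGGTG at 2.94% of both and CACGTG at 1.35% and in 1.17%. The homeodomain word TAATTA was at 6.11% of summits and in 6.53% of flanks, the GATA word GATAAG at 6.02% and in 5.51%, and the GAGA word GAGAGA at 5.04% and in 5.27%. Words of signalling factors were at under 3% of summits. AP-1 (TGANTCA) was at 2.71% of summits and in 2.19% of flanks, ETS (CCGGAA) at 1.82% and in 2.24%, SMAD (GCCGNCGC) at 1.12% and in 1.49%, and CRE (TGACGTCA) at 0.280% of both. Su(H), the Notch effector, with the word GTGGGAA, was at 0.980% and in 1.59%. Of promoter and early embryo words, the Initiator (TCAGTT) was at 5.83% of summits and in 5.93% of flanks and Zelda (CAGGTAG) at 0.467% and in 0.607%. DREF (TATCGATA) was at 9 summits and in 12 flanks and M1BP (GGTCACAC) at 9 summits and in 4 flanks. Runs of 8 A were at 5.37% of summits and in 6.58% of flanks, and CACACACA, a CA repeat, at 2.94% and in 3.78%.

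Among all 2080 words of 6 bases, 135 (6.49%) passed at the members, 90 higher and 45 lower at summits, against 1433 (68.9%) at the more numerous optimal peaks. The count was 0 with the 5000 strongest regions of each replicate (41 at an unadjusted p under 0.05, exact McNemar test), 35 within 25 bp and 290 within 100 bp of the summit, and 995 and 232 with the strong regions of replicate 1 alone and of replicate 2 alone. The words with the lowest p were AAATAT (24.5% at member summits, 15.8% in flanks), CAAATA (17.5% and 10.2%), TAAATA (21.0% and 14.2%), CACTGA (7.65% and 3.69%), TGTAAA (12.4% and 7.42%), CAGTGC (8.82% and 4.76%), CAGCAG (5.83% and 10.1%), GCAGGA (1.96% and 4.62%), ATATTG (10.2% and 6.11%) and CAGGAG (1.31% and 3.55%). Of the 90 higher words 77 had 2 or fewer G or C bases, and of the 45 lower words 44 had 3 or more.

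The 13 higher words with 3 or more G or C bases were of another kind. In 4 of them the run CACTG or its complement was present: CACTGA and CAGTGC, given above, the word ACAGTG and the word ACACTG. Of the members 512 had this run at the summit (23.9%, exact interval 22.1 to 25.8), beside 15.6% in flanks at the higher and 16.7% at the lower coordinate. At optimal summits it was at 20.8%, with 15.9% and 17.8% in the flanks, and at other candidates at 21.2%, with 15% and 15.8%. The longer GCACTGA was at 76 member summits (3.55%, 2.80 to 4.42), with 1.21% and 1.17% in the flanks, at 2.07% of optimal summits and at 1.84% of other candidates. Both were read off the words that passed, so they carry no test. Further words of this kind were ACACAG (7.33% of member summits, 4.15% of flanks), CAACAC (6.72% and 4.01%) and ATACCC (5.18% and 3.03%). None of the factors that might bind these words was assigned.

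Of 13945 protein-coding genes 2367 (17.0%) had a member summit in the gene or within 5 kb, and 1420 of these also had an optimal summit, beside 5714 (41.0%) of all genes; gene length was not held equal. The other 947 genes (6.79%) had a member and no optimal summit. Those with the most member summits spanned 34679 to 162060 bp: RapGAP1, which encodes a GTPase activator of Rap, had 12 in 8 loci, the Wnt receptor gene fz2 10 in 6 loci, and the homeobox gene hth, jvl, sick and tara had 8 each. Each of these also had 5 to 15 optimal summits. Wdr62, named after its values were seen, had 7 member summits in 4 loci and no optimal summit in its window, with pooled signals of 25.9 to 92.2.

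In each of the muscle and mesoderm lists, of 8 to 21 genes, the share of genes with a member was above that of all genes. A share above that of all genes was not particular to muscle. It was also found in every list of other functions described below except the chemoreceptors (7.56%), with 53.8% of BMP genes and 41.7% of Wnt and Hedgehog genes. The lists share genes with a member. The gene Doc2 counts in both the T-box list and the list of heart and alary muscle. Both ths and pyr count in the early mesoderm list and in the EGFR and FGFR list. Both hh and ptc count in the ectoderm and neural list and in the Wnt and Hedgehog list. A member was found at 7 of 21 somatic muscle identity regulators, 6 of 10 visceral mesoderm genes, 4 of 11 genes of the early mesoderm, 7 of 12 genes of myoblast fusion, 6 of 20 of muscle structure, 3 of 12 of heart and alary muscle, and 2 of 8 T-box genes, beside 17.0% of all genes. The lists differ from all genes in length, and no test of a list was made. The genes with a member but no optimal summit, 6.79% of all genes, numbered 3, 2, 2, 2, 2, 1 and 0 in the same order of lists. The tagged gene org-1 itself had no member and 2 optimal summits.

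Among the muscle identity regulators with members alone, sd, which encodes the TEAD partner of the factor Vg, had 3 member summits, the strongest 468 bp inside the gene (pooled 96.1, with 61.5 in replicate 1 and 39.1 in replicate 2). The cofactor gene eya had 2 member summits, the stronger in an intron on 2L from 6539991 to 6540446 (95.6, with 46.5 in replicate 1 and 47.6 in replicate 2), and its replicate summits lay 38 bp apart. The paired-type homeobox gene Ptx1 had 1, in an intron on 3R (86.0, with 34.7 and 56.5, summits 91 bp apart). In the visceral mesoderm list, the ubiquitin ligase gene mib2 had 2, the stronger in an intron (83.9, with 40.7 and 44.7), and Alk, a receptor of visceral founder cells, had 2, the stronger 281 bp upstream of its start (60.6, with 33.0 and 39.7). The replicate summits lay 145 bp apart at sd, 132 bp at mib2 and 288 bp at Alk.

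Of the remaining genes with members alone, the fusion-competent myoblast regulator lmd had 1, 1995 bp upstream on 3R from 23028480 to 23028935 (86.8, with 50.7 in replicate 1 and 39.3 in replicate 2). Vrp1, which encodes a partner of WASp in fusion, had 2, the stronger 80 bp upstream of its start (85.2, with 60.2 and 61.1) and inside the neighbouring gene mei-S332. The mesoderm determinant twi had 3, the strongest in its intron (74.7, with 36.8 and 36.8), and there the replicate summits lay 2 bp apart. The FGF ligand gene pyr had 1 (49.6), the nuclear receptor gene svp 1 (65.8, 483 bp from a start of CG44037), the paramyosin gene Prm 1 in an intron (87.8, with 61.6 and 32.1) and the LIM protein gene Mlp60A 1, which lay in an intron of the neighbour Gpat4 (68.8). Near twi, svp, lmd and eya both replicate summits were within 100 bp of the pooled summit, whereas near Vrp1, pyr, Prm and Mlp60A they were not.

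Genes with both a member and an optimal summit included the T-box genes bi (member signal 88.8, in an intron) and Doc2 (94.8, 4511 bp upstream). They also included lbl (93.1), caup (74.3), Fas3 (99.3), bin (82.2), hth (93.0), how (91.4), ths (94.0), srp (87.7), kirre (89.4, with 7 member and 20 optimal summits), siz (95.5), Tm1 (76.7) and Msp300 (96.7). Some members counted for a gene lie outside it and nearer to another. That counted for bin is 1626 bp upstream of Mp, and that for srp 3877 bp upstream of GATAe. For kn and Poxm, which also had both, it is 52 bp upstream of BEAF-32 and 415 bp inside Ctr1B.

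The lists of other functions had members as follows. Of 20 ectoderm and neural regulators 4 had one, and at hh (86.0), odd (67.5) and SoxN (77.9) there was no optimal summit. Members were found at 7 of 14 EGFR and FGFR genes, among them aos (96.9), pnt (94.5) and bnl (81.3), at 4 of 8 Notch genes matched, among them mam (98.6) and numb (77.8), at 7 of 13 BMP genes, among them shn (84.7) and Dad (76.6), and at 5 of 12 Wnt and Hedgehog genes, among them fz (98.6) and nkd (97.2). The strongest member counted for Dad lay 21 bp inside the neighbour mRpS11, and that for the BMP gene Med in an intron of CycG. All genes of the Notch and BMP lists with a member also had an optimal summit, as did 5 of 8 and 12 of 13 with or without a member. Of 88 ribosomal protein genes 16 (18.2%) had a member, close to the 17.0% of all genes, and each of the 16 also had an optimal summit, as did 69 of the 88 with or without a member. Of 119 chemoreceptor genes 9 (7.56%) had one, of which 3 (Gr64a, Gr64b and Gr64c) shared the same summit, 89 bp inside CG11594.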

How the data were processed

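Peak lists of an anti-GFP ChIP-seq in whole embryos were used: candidates of replicate 1, of replicate 2 and of the pooled data, and the optimal list, all in dm6. Each region's signal value is the authors' own, per the deposited files, and so is its −log10 q value; 30000 candidates were listed per list. For the aligner and the peak caller, name and settings are not given in the sources used. The authors used a control alignment, per the labels. The files hold no counts, so depth and counting error are unknown.

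From these lists, members, merged loci, locations (Ensembl 115 annotation) and words in the release 6 sequence within 50 bp of the pooled summit were computed in Python 3.11.15 with numpy 2.4.6, pandas 2.3.3 and scipy 1.17.1. A replicate's signal at a region is that of its strongest overlapping candidate. Shares carry exact binomial and Newcombe 95% intervals, and differences of mean GC a normal one. Words at summits were compared with windows 400 bp to the higher coordinate by two-sided exact McNemar tests with Benjamini-Hochberg adjustment; the scripts were tested on simulated data. Members and lists were chosen with earlier results of these data known. Named were the 20 members with the highest pooled signal, the 3 with the highest and 3 with the lowest replicate ratio, muscle and mesoderm genes with members alone, up to 4 members of each other list, the genes with most members, all motifs, the 10 words with the lowest p and members with AGGTGTGA.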

Additional observations from a re-analysis of the deposited data

How the results depend on the processing

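Asking for the 5000 strongest regions of each replicate left 147 members; there the difference to the optimal peaks turned to 5.24 points at promoters (-2.61 to 13.4), -0.135 in coding exons and -3.60 in introns (-11.3 to 4.60), and no motif (0 at an unadjusted p under 0.05) and no word (0 adjusted, 41 unadjusted) passed the exact McNemar test. With 20000 there were 6836 members and 6 motifs passed. The 1072 members with the highest pooled signal gave 1 motif. Members with both replicate summits within 100 bp of the pooled summit, a choice made after seeing the data, numbered 833. Windows of 25 bp to either side of the summit gave 35 words and of 100 bp 290. Leaving out 1 replicate gave 5922 to 6116 members, promoter differences of -14.7 to -4.56, coding exon differences of 0.568 to 3.02, intron differences of -1.58 to 6.08, GC differences of 2.63 to 9.53, 9 to 11 motifs and 232 to 995 words. The GC difference kept its sign in all 11 alternatives run for it. The T-box core passed in none of 12 (lowest p 0.0798 and lowest adjusted p 0.180, exact McNemar test). No paired analysis was possible because both libraries belong to 1 group.

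Neighbouring members share sequence, a flank can reach a neighbour's summit, windows of 5 kb catch summits of neighbouring genes, and the files hold no counts, so no value carries a counting error of reads.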
